A study of Mus musculus with 9 samples.

Results

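The cytosolic ribosomal protein genes encode the protein part of the ribosome that translates nuclear mRNA. They were taken from the count table by name: Rpl or Rps followed by digits, with an optional suffix a, x, l, l1 or al, or Rplp0, Rplp1, Rplp2 or Rpsa, with at least 100 counts summed over the 9 libraries. Of the 55335 rows of the table, 86 carried such a name and 84 reached the minimum, 52 for the large subunit (Rpl) and 32 for the small subunit (Rps). Rpl10l (0 counts) and Rps12l1 (3 counts) lay outside the minimum. Rpl39l (183 counts) lay just inside it, and the next lowest was Rps4l (2520 counts), well above it. All 84 also passed the filter on low counts used for testing. In the GENCODE annotation 82 of them were protein-coding, Rpl6l was a processed pseudogene and Rps4l a transcribed processed pseudogene, that is, copies of a spliced mRNA put back into the genome. A few ribosomal proteins have names of another form (such as Rps3a1, Fau and Rack1) and are given only for comparison.

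The libraries were made from total RNA of leg muscle of 9 wild-type (WT) mice, written c57b6l in the labels, all of which had ischaemia induced in a hindlimb suspension model. 3 mice had no treatment (Control 1 to 3), 3 were given aspirin (Aspirin 1 to 3), and for 3 a peptide hydrogel was added to aspirin (Hydrogel 1 to 3). Dose, time after injury, age and sex were not given in the sources used here, and there was no uninjured muscle and no hydrogel without aspirin. Library totals were 32197791 to 48170537 counts. Muscle fibre markers were abundant in every library, so the tissue label held, but their summed level (16 genes) ran from 27595 CPM (counts scaled to library size) in Aspirin 1 to 329048 CPM in Hydrogel 3. Aspirin 1 thus held far less muscle fibre RNA than the other 8 libraries, and the family's counts and medians, and the values of the genes named first in each comparison, are given with and without it where it moves them. In bulk tissue, fewer cells of a type and less RNA per cell cannot be told apart.

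A ribosome has a large (60S) subunit that forms peptide bonds and a small (40S) subunit that reads the mRNA, and nearly every ribosomal protein is present once in each. Their genes are usually regulated together and most of their mRNAs start with a run of pyrimidines, the 5′ terminal oligopyrimidine (TOP) tract, through which mTORC1 signalling raises or lowers their translation. Skeletal muscle has a paralogue of its own, Rpl3l, which replaces the general large-subunit protein Rpl3 in mature fibres, while Rpl3 returns in growing or regenerating muscle.

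The start regions of some of these genes are printed because the TOP tract is a known feature of many mRNAs of the family, shared with other translation genes. 62 of the 84 genes had an entry in the RefSeq promoter table (GRCm38.p6). In each, the 10 bases before and 15 bases after the listed start were searched for the letters CTTTC and CTTCC, a choice made after the sequences had been seen. Each sequence below runs 5′ to 3′ on the gene's strand from 40 bases before the start through its first 20 bases, and capitals mark the searched letters. The first 6 are general ribosomal protein genes whose start carries a pyrimidine run.
Rps10 (chr17:27635225-27635284, minus strand): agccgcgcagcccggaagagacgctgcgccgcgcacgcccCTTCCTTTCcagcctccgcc
Rpl15 (chr14:18270967-18271026, minus strand): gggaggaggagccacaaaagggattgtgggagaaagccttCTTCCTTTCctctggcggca
Rpl28 (chr7:4792925-4792984, plus strand): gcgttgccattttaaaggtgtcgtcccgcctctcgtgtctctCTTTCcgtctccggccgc
Rpl35 (chr2:39005112-39005171, minus strand): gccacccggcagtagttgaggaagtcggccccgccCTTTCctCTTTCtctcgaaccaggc
Rpl38 (chr11:114668540-114668599, plus strand): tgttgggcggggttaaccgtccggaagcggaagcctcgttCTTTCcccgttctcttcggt
Rplp2 (chr7:141447611-141447670, plus strand): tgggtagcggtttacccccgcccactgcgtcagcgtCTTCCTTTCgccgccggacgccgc
The other 4 are paralogues, shown because their counts are compared with those of the general genes further on.
Rpl3l (chr17:24727786-24727845, plus strand): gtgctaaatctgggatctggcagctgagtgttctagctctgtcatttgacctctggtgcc
Rps27l (chr9:66946046-66946105, plus strand): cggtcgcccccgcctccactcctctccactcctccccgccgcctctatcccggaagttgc
Rpl22l1 (chr3:28805468-28805527, plus strand): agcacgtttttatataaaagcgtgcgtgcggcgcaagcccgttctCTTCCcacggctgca
Rpl7l1 (chr17:46782637-46782696, minus strand): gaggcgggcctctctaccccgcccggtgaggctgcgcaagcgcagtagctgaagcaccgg
CTTTC stood on the transcript strand in 15 of the 62 searched genes (24.2%), against 3.68% of 27025 genes. CTTCC stood there in 12 (19.4%), against 6.41%, and at least one of them in 23 (37.1%), against 9.76%; in Rps10, Rpl15 and Rplp2 the 2 motifs overlap. On the other strand CTTTC was found in 1 of the 62 genes and CTTCC in 6, with 3.54% and 7.05% of all genes. The match is a description of letters near the listed start. A gene with more than 1 listed start counted if any of them held the letters. The printed windows of Rpl3l, Rps27l and Rpl7l1 held neither motif. Rpl3l and Rps27l have 2 listed starts each, of which the first is printed. Because the 6 general genes were picked for a pyrimidine run, the printed sequences do not compare general genes with paralogues.

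Ribosomal protein genes took a very uneven share of the counts, and most of the unevenness lay within the aspirin group. They held 2.26%, 1.16% and 1.58% of all counts in Control 1 to 3. In Aspirin 1 to 3 they held 6.36%, 2.41% and 1.40%. In Hydrogel 1 to 3 they held 1.39%, 1.25% and 0.822%. The mean share was 1.67% ± 0.559 (SD, n = 3) in controls, 3.39% ± 2.62 (SD, n = 3) with aspirin and 1.15% ± 0.297 (SD, n = 3) with aspirin and hydrogel. Aspirin 1 was far above all others, Aspirin 3 lay inside the control range, and all hydrogel libraries lay below Aspirin 3, the lowest aspirin library, Hydrogel 1 only narrowly. Without Aspirin 1 the aspirin mean was 1.91%.

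**Figure D1:**
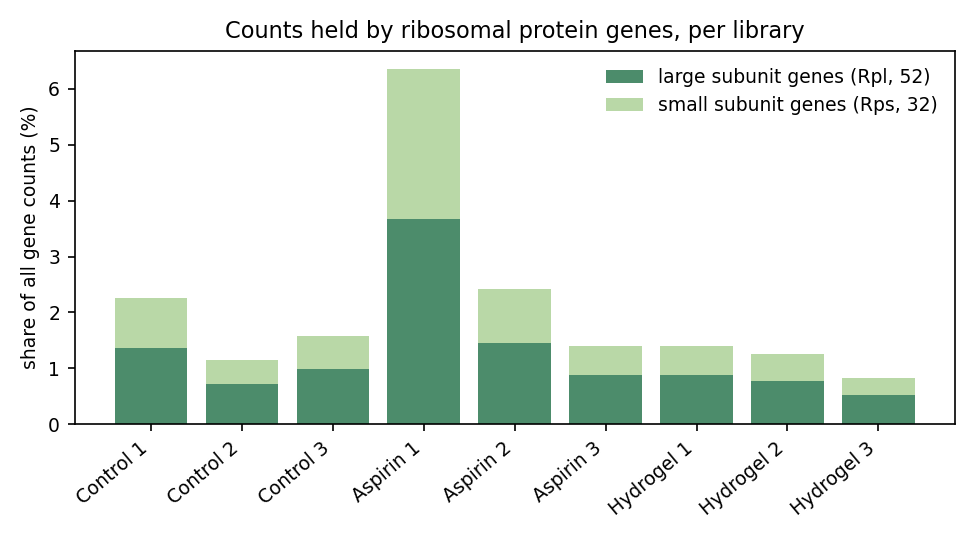
Share of all gene counts (%, vertical axis) held by the 52 large-subunit and 32 small-subunit genes in each of the 9 libraries (1 bar per mouse). Aspirin 1 stands at 6.36% and Hydrogel 3 at 0.822%, with the other 7 libraries between 1.16% and 2.41%.

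The balance between the subunits moved with the total. Large-subunit genes held 1.36 counts for each small-subunit count in Aspirin 1, the library with the highest total, and 1.80 in Hydrogel 3, the library with the lowest. In the other 7 libraries the ratio was 1.51 to 1.69. The order of this ratio across libraries was not tested.

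Nearly all genes of the family shared 1 pattern over the libraries. 77 of the 84 had their highest level in Aspirin 1, and 50 had their lowest in Hydrogel 3 and 23 in Control 2. To compare genes, each gene's log2 CPM was set relative to its own mean over the 9 libraries, for the 83 genes counted in every library (Rpl39l was at 0 in Hydrogel 2). The median over genes was 0.14, -0.44 and 0.064 in Control 1 to 3. It was 1.24, 0.41 and -0.16 in Aspirin 1 to 3, and -0.23, -0.42 and -0.61 in Hydrogel 1 to 3. The hydrogel values lay below those of all aspirin libraries. Hydrogel 1 and 2 were within the control range, of which Control 2 was the low end, and Hydrogel 3 was below it. The SD of a gene's deviation from this median was 0.21 for the gene in the middle of the list. Rpl3l stood apart with 1.66, followed by Rps2 (0.63), a small-subunit protein near the mRNA entry channel, and Rpl7l1 (0.54). All 3 deviated furthest in Aspirin 1, where they were 3.97, 1.44 and 1.22 below the median.

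**Figure D2:**
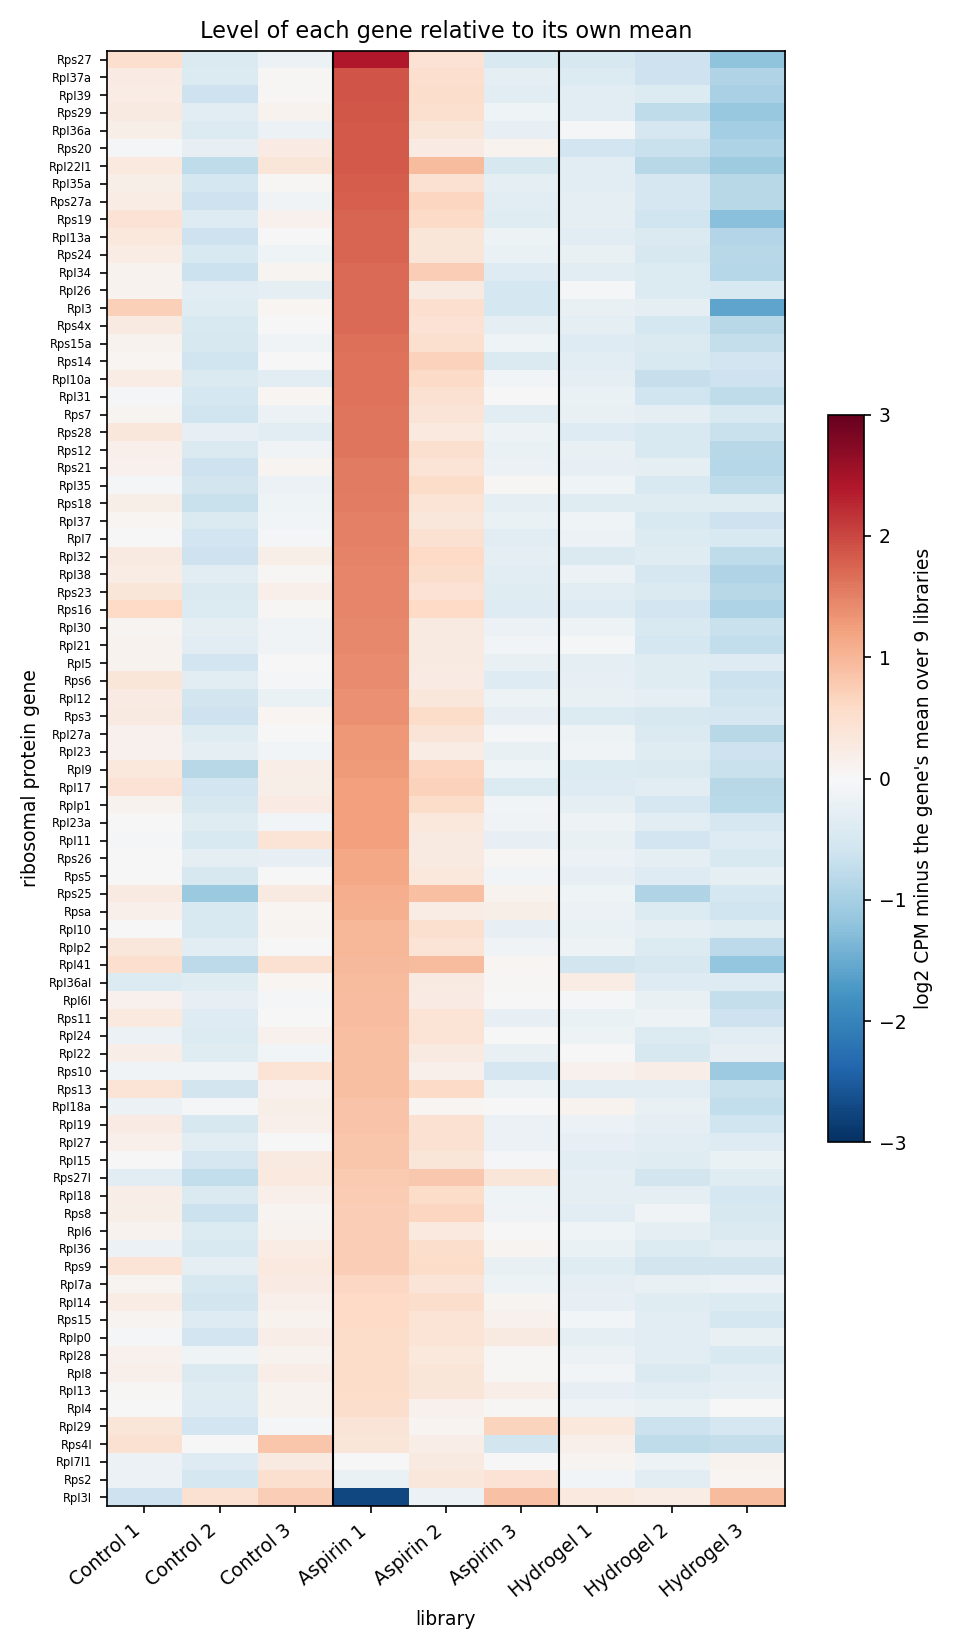
Heat map of 82 of the 83 genes counted in every library (rows, ordered by their value in Aspirin 1) in 9 libraries (columns, black lines between groups); colour is log2 CPM minus the gene's mean over the libraries. Aspirin 1 is red for nearly every gene and Hydrogel 3 mostly blue, while Rpl3l in the bottom row is reversed.

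Levels per transcript length were compared with the deposited FPKM, a value per kilobase of exon that is scaled to library depth. The median gene had 101 FPKM over the 9 libraries, with quartiles of 60.7 and 175. The highest were Rps15, a protein of the small subunit's head (462 FPKM), the P-stalk base protein Rplp0 (416), its partner Rplp1 (407), Rpl4 (371) and Rps4x, the X-linked form of a small-subunit protein (369). The lowest were Rpl39l (0.558), Rps4l (6.74), Rpl7l1 (11.98), Rpl22l1 (12.01) and Rpl6l (20.8), all of them paralogue or pseudogene rows. Genes that encode proteins of equal number in the ribosome therefore differed widely in FPKM. FPKM depends on the exon length assigned to each gene, and reads of family members can be shared with their many pseudogenes: pseudogene rows of these genes held 6.13 to 7.24 counts for every 100 counts of the 84 genes in each library.

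With aspirin, ribosomal protein genes were on the whole higher than in untreated ischaemic muscle, but the libraries overlapped and no gene passed the test. The log2 fold change of aspirin against control had a median of 0.70 over the 84 genes, against 0.046 over all 18259 genes tested. It was above 0 in 81 of 84 (54.0% of all genes) and below 0 in Rps4l (-0.42), Rpl3l (-0.36) and Rpl39l (-0.078), 3 of 84 (46.0% of all genes), though Rpl3l was at 0.14 without Aspirin 1 and Rpl39l at 0.31 under scaling by library size alone. The small-subunit median was 0.81 and the large-subunit median 0.62. Both include Aspirin 1 and were not taken without it, where the family's median was 0.21. In edgeR's quasi-likelihood test with Benjamini-Hochberg adjustment over all genes, 0 of the 84 were called and 0.0% of all genes. At an unadjusted p under 0.05, 0 were lower (3.39% of all genes were) and 8 higher (3.09%), among them Rpl10a, Rpl31, Rpl35, Rpl36al, Rps15a, Rps26 and Rps27l. DESeq2 called 0 of the 84 and 0.553% of all genes, and limma-voom 0 and 0.0%.

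Rps27l, a paralogue of Rps27 known as a p53 target, had the smallest p among them. Its level was 32.6, 24.3 and 49.9 CPM in controls, and 70.4, 71.4 and 52.7 CPM with aspirin. All aspirin libraries were above all controls, and Aspirin 1 did not stand out from Aspirin 2. The log2 fold change was 0.86 (SE 0.28, 95% interval 0.24 to 1.49, edgeR adjusted p = 0.753), and 0.80 without Aspirin 1.

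Rpl35, a large-subunit protein near the exit of the peptide tunnel, had 192, 134 and 176 CPM in controls and 581, 291 and 203 CPM with aspirin. Here too the groups did not overlap, but Aspirin 3 was only slightly above Control 1. Its log2 fold change was 1.10 (SE 0.41, edgeR adjusted p = 0.753), and 0.55 without Aspirin 1. Rps27, whose protein has a zinc finger and lies on the small subunit, had the largest log2 fold change, 1.28 (SE 0.66, edgeR adjusted p = 0.754). Its level was 179, 94.7 and 113 CPM in controls and 674, 171 and 93.1 CPM with aspirin. Aspirin 2 and Aspirin 3 lay within the control range or just below it, and without Aspirin 1 the log2 fold change was 0.025. By limma-voom it was 0.77 in all libraries.

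7 of the 84 genes had every aspirin library above every control (5.54% of all genes did): Rpl13, Rpl35, Rplp0, Rps15, Rps26, Rps27l and Rpsa. That share is near the background of all genes. The size of the difference rested on single libraries. Without Aspirin 1 the median log2 fold change was 0.21 and 1 of the 84 had an unadjusted p under 0.05 (5.43% of all genes). Without any 1 of the other libraries except Aspirin 3 that count was 1 to 7 of 84 (3.24% to 6.26% of all genes). Without Aspirin 3 the median was 0.99, 56 of the 84 had an unadjusted p under 0.05 (14.2% of all genes) and 70 did not overlap (16.0% of all genes). The count without overlap was also 13 without Control 1 (11.1% of all genes) and 16 without Control 3 (10.1%). Leaving a library out can only keep or raise such a count.

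Aspirin combined with hydrogel left ribosomal protein genes slightly below the untreated controls, within the spread of the libraries. The median log2 fold change was -0.33, against -0.030 over all genes, and 81 of the 84 genes were below 0 (52.9% of all genes were). The exceptions were Rpl3l (0.23), Rpl7l1 (0.084) and Rpl36al (0.065), 3 of 84 above 0 (47.1% of all genes), but Rpl7l1 was at -0.14 and Rpl36al at -0.12 under scaling by library size alone, and Rpl3l at -0.075 without Control 1 and -0.054 without Hydrogel 3. None was called by edgeR's quasi-likelihood test (0 of 84, and 0.0% of all genes), by DESeq2 (0 of 84, 0.0986% of all genes) or by limma-voom (0 of 84, 0.0% of all genes). At an unadjusted p under 0.05 only the pseudogene row Rps4l was lower (1 of 84, 2.18% of all genes), and 0 were higher (1.74%).

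7 genes had every hydrogel library below every control (6.3% of all genes did): Rpl28, Rpl37a, Rps9, Rps20, Rps27, Rps28 and Rps29. Control 2 was the low control. Without it, 66 of the 84 genes did not overlap (13.7% of all genes), and without Hydrogel 1 it was 31 (13.8%). Such a count cannot fall when a library is left out. Rpl41, the shortest protein of the ribosome, had the most negative log2 fold change of the general genes, -0.87 (SE 0.41, edgeR adjusted p = 0.987). Its level was 146, 59.5 and 140 CPM in controls and 70.1, 73.6 and 45.7 CPM with hydrogel, and Control 2 lay among the hydrogel libraries. Rpl4, which lines the peptide tunnel, hardly differed: 749, 578 and 822 CPM in controls and 682, 661 and 749 CPM with hydrogel, a log2 difference of -0.039 (95% interval -0.77 to 0.69).

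The widest difference was between the 2 treated groups. Against aspirin alone, the hydrogel group was lower in 83 of the 84 genes (53.3% of all genes were lower), with a median log2 fold change of -1.07 against -0.053 over all genes. Rpl3l was the exception (0.59), 1 of 84 above 0 (46.7% of all genes), and was at -0.18 with Aspirin 1 and Hydrogel 3 both left out. Again 0 of 84 genes and 0.0% of all genes were called by edgeR's quasi-likelihood test, and the smallest adjusted p in the family was 0.453. At an unadjusted p under 0.05, 65 of the 84 were lower and 0 higher, against 7.61% and 3.32% of all genes. In 51 of the 84 every hydrogel library lay below every aspirin library (8.75% of all genes did), 31 in the large and 20 in the small subunit. This comparison and the one of aspirin with control share the aspirin libraries, and the one of hydrogel with control shares the hydrogel libraries, so the 3 are not independent.

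Rps20, a small-subunit protein of the 40S head, had 381, 127 and 114 CPM in Aspirin 1 to 3 and 72.3, 67.3 and 56.4 CPM in Hydrogel 1 to 3. All hydrogel libraries were below all aspirin libraries, and also below all controls (104, 90.2 and 126 CPM). The log2 fold change against aspirin was -1.67 (SE 0.46, 95% interval -2.70 to -0.63, edgeR adjusted p = 0.453), and -0.88 without Aspirin 1. DESeq2 called this gene alone of the 84 (log2 fold change -1.68, adjusted p = 0.0449; 0.86% of all genes were called), and limma-voom called 0 of 84 (0.0% of all genes). Without Aspirin 1 the DESeq2 call was lost (log2 fold change -0.87, adjusted p = 0.0594), a fit added after seeing the data.

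Rps27l had the smallest unadjusted p of the family in edgeR's test. Its hydrogel levels were 33.4, 27.8 and 31.6 CPM, below all 3 aspirin libraries given above and within the control range. The log2 fold change was -1.07 (SE 0.28, 95% interval -1.70 to -0.44, edgeR adjusted p = 0.453). Rps29, another small zinc-binding protein of the 40S head, had 253, 96.7 and 62.9 CPM with aspirin and 54.8, 40.7 and 31.6 CPM with hydrogel. The groups did not overlap, and Aspirin 3 was closer to Hydrogel 1 than to the other aspirin libraries. The log2 fold change was -1.70, and -0.91 without Aspirin 1. The mRNAs for the 3 proteins of the P stalk, which recruits the elongation factors, were also lower in all hydrogel libraries than in all aspirin libraries. Rplp0 had 1022, 922 and 834 CPM with aspirin and 575, 545 and 592 CPM with hydrogel (log2 fold change -0.70, SE 0.33, edgeR adjusted p = 0.459, and -0.62 without Aspirin 1).

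The size of this difference rested in part on Aspirin 1. Without it, the median log2 fold change was -0.59 and 82 of the 84 genes remained lower. In that fit 18 had an unadjusted p under 0.05 (5.36% of all genes had one in either direction), and 52 did not overlap (12.3% of all genes). Leaving libraries out can only keep or raise the count without overlap, so it is no check on that count. Without Hydrogel 3, 13 of the 84 had an unadjusted p under 0.05 (4.70% of all genes), and without Hydrogel 2 it was 26 (7.93%). Without Aspirin 3 it was 74 (22.03%), and 78 did not overlap (21.5% of all genes). With Aspirin 1 and Hydrogel 3 both left out, the median was -0.49, 83 genes were lower, 4 had an unadjusted p under 0.05 (4.26% of all genes) and 52 did not overlap (17.5% of all genes). Asked whether the 3 groups differed in any way, edgeR called 0 of 84 genes and 0.0% of all genes, with an unadjusted p under 0.05 in 28 (6.97% of all genes). Without Aspirin 1 that count was 4 (5.56%), and without Aspirin 3 it was 68 (15.3%). DESeq2 called 0 of 84 by that test (0.838% of all genes) and limma-voom 0 (0.0%).

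**Figure D3:**
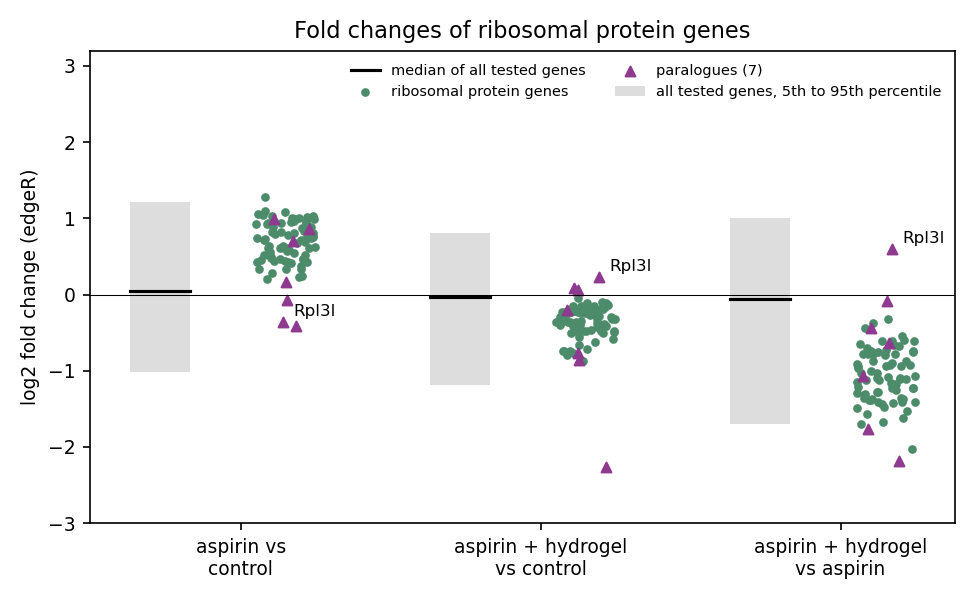
Log2 fold changes (edgeR, vertical axis) of the 84 genes in the 3 comparisons: green points are general genes with the pseudogene Rpl6l, purple triangles the 7 paralogue rows, grey bars the range from the 5th to the 95th percentile of all 18259 genes and black lines their median. The points gather above 0 for aspirin against control and below 0 in the other 2 comparisons, mostly inside the grey bars. In this fit of all libraries Rpl3l lies on the opposite side. Rps4l and Rpl39l also do for aspirin against control, and Rpl7l1 and Rpl36al for hydrogel against control.

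With all libraries in the fit, the muscle form Rpl3l ran against most of the family, and it deviated furthest in Aspirin 1. Without Aspirin 1 its log2 fold change for aspirin against control was 0.14, in the family's direction (median 0.21). Rpl3 (chr15:80077791-80091868, minus strand) and Rpl3l (chr17:24727820-24736143, plus strand) encode the same position of the 60S subunit, near the peptidyl transferase centre. Rpl3 had 314, 148 and 199 CPM in controls, 616, 270 and 131 CPM with aspirin, and 162, 156 and 63.0 CPM with hydrogel. Rpl3l had 183, 387 and 469 CPM in controls, 42.4, 248 and 517 CPM with aspirin, and 343, 331 and 543 CPM with hydrogel. Where Rpl3 was highest (Aspirin 1) Rpl3l was lowest, and where Rpl3 was lowest (Hydrogel 3) Rpl3l was highest.

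Per length, the ratio of Rpl3l to Rpl3 FPKM was 1.13, 5.05 and 4.56 in controls. It was 0.133, 1.78 and 7.64 with aspirin, and 4.11, 4.12 and 16.7 with hydrogel. On this scale Rpl3 was ahead in Aspirin 1 and Rpl3l in the other 8 libraries. In counts, not divided by length, there were 58.5 of Rpl3l per 100 of Rpl3 in Control 1, 6.88 in Aspirin 1 and 91.7 in Aspirin 2, so Rpl3 was ahead in these 3 libraries. The groups overlapped in every comparison. On the log2 scale the ratio of counts differed by -1.28 between aspirin and control (exact two-sided permutation test, p = 0.7), by 1.15 between hydrogel and control (p = 0.6, exact) and by 2.43 between hydrogel and aspirin (p = 0.3, exact). With 3 mice against 3 the smallest p this test allows is 0.1, and over the 21 tests of 7 gene pairs all Benjamini-Hochberg adjusted values were 0.6 or more. Without Aspirin 1 the first difference was 0.31, in the other direction. In edgeR, Rpl3 was 1.42 lower (SE 0.60, adjusted p = 0.454) and Rpl3l 0.59 higher (SE 0.74, adjusted p = 0.728) on the log2 scale with hydrogel than with aspirin alone. Without Aspirin 1 these differences were -0.66 and 0.094.

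The elongation factor eEF1A has the same arrangement, with a general form, Eef1a1, and a form of mature muscle and neurons, Eef1a2. Eef1a2 had 892, 1375 and 1684 CPM in controls, 131, 946 and 2636 CPM with aspirin, and 1326, 1453 and 2200 CPM with hydrogel. Its FPKM ratio to Eef1a1 was lowest in Aspirin 1 (0.0508) and highest in Hydrogel 3 (3.80), the same 2 libraries as for Rpl3l, and again overlapped between groups (hydrogel against aspirin, p = 0.4, exact two-sided permutation test). The summed level of 16 muscle fibre markers was 106053, 169269 and 236277 CPM in controls, 27595, 152733 and 277106 CPM with aspirin, and 176699, 198993 and 329048 CPM with hydrogel. Rpl3l, Eef1a2 and these markers were thus all lowest in Aspirin 1. The part of fibre content in the Rpl3l values was not tested.

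**Figure D4:**
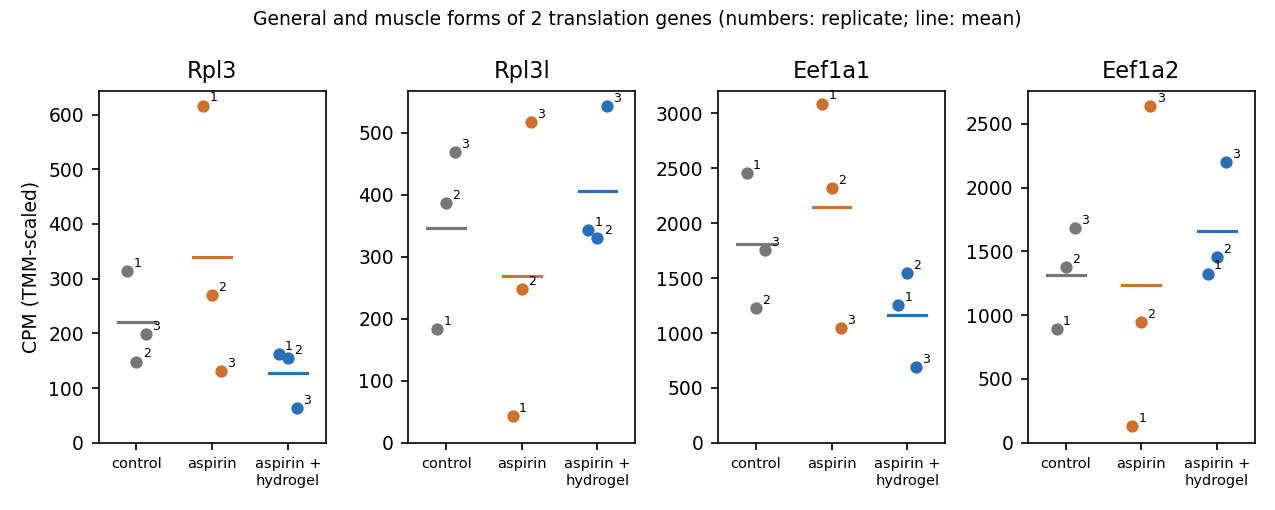
CPM (vertical axes, starting at 0) of Rpl3, its muscle form Rpl3l, the elongation factor Eef1a1 and its muscle form Eef1a2 in each library; numbers are replicates and lines are group means (n = 3). Aspirin 1 is highest for Rpl3 (616 CPM) and lowest for Rpl3l (42.4 CPM), and the groups overlap in all 4 panels.

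The other paralogues differed among themselves. Rpl22l1, a paralogue of Rpl22 with a role in blood cell development and splicing, had 21.99, 10.6 and 22.9 CPM in controls, 63.4, 34.7 and 12.9 CPM with aspirin, and 14.1, 10.1 and 8.48 CPM with hydrogel. Its counts per 100 of Rpl22 were 36.0, 30.7 and 16.1 with aspirin and 14.9, 14.9 and 10.6 with hydrogel, so that every hydrogel library was lower. That is the smallest p the design allows (p = 0.1, exact two-sided permutation test, adjusted 0.6). Rps4l, whose row is a pseudogene of Rps4x, had 1.47, 1.79 and 2.28 counts per 100 of Rps4x in controls and 0.514, 1.09 and 1.05 with aspirin, lower in every aspirin library (p = 0.1, exact, adjusted 0.6). Rps4x itself was at its highest in Aspirin 1 (1566 CPM against 351 to 582 CPM in controls).

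Rps27l, relative to Rps27, went from 0.133 in Aspirin 1 to 0.725 in Hydrogel 3 on the FPKM scale. Rpl7l1, thought to act in ribosome assembly rather than in the mature ribosome, was the steadiest row, at 34.3 to 54.0 CPM in all 9 libraries, while its namesake Rpl7 went from 264 to 1119 CPM. Rpl36al, a retained copy of Rpl36a, had 63.2 counts per 100 of Rpl36a in Aspirin 1 and 181 in Hydrogel 3. Rpl39l, known from testis, had 0 to 53 counts per library, under 2 counts for every 100 of Rpl39. Its fold changes rest on these few counts and are not interpreted: -2.27 against control (SE 1.10) and -2.19 against aspirin (SE 1.09) on the log2 scale with hydrogel.

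Genes of ribosomal proteins with names of another form had fold changes in the family's range. Fau, which encodes a small-subunit protein as a fusion, had a log2 fold change of 0.68 for aspirin against control and -1.21 for hydrogel against aspirin. Rack1, a scaffold protein on the small subunit, had 0.51 and -0.94. Neither was called by edgeR. Rps3a1 had 600, 410 and 468 CPM in controls, 1499, 681 and 454 CPM with aspirin, and 461, 403 and 337 CPM with hydrogel, and the groups overlapped in all 3 comparisons. A list of 20 genes taken as translation factors with TOP mRNAs also held Npm1, which is not a translation factor. Its medians were 0.16, -0.061 and -0.21 for aspirin against control, hydrogel against control and hydrogel against aspirin, with 0 of 20 called in each. Against aspirin, 14 of 20 were lower and 6 higher with hydrogel. Npm1, a nucleolar chaperone, was lower (log2 fold change -1.02), and Eif3a, the largest subunit of initiation factor eIF3, was higher (0.55); both were named after their values were seen.

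The 49 ribosome biogenesis factors tested had medians of 0.20, 0.17 and -0.16 in the same order, and 5 of 49 (higher), 0 and 2 of 49 (lower) had an unadjusted p under 0.05, against 3.09% of all genes higher and 7.61% lower in the comparisons of the 5 and the 2. The 5 were higher with aspirin than in controls: Nhp2, Wdr12, Heatr1, Mrto4 and Nle1, which act in small-RNA-guided modification or in assembly of the subunits. The 27 genes of mTORC1 signalling and TOP mRNA control had medians of -0.061, 0.10 and 0.15. Only Mtor itself had an unadjusted p under 0.05 (0.57 higher with hydrogel than with aspirin on the log2 scale). Of all genes, 3.32% were higher at that threshold in this comparison. The 14 genes of ribosome stress and quality control had medians of -0.0086, 0.23 and 0.15. Of these 14, 12 were higher with hydrogel than in controls, and 3 had an unadjusted p under 0.05 there (1.74% of all genes higher, 2.18% lower): Ltn1 and Abce1, which act in rescue of stalled ribosomes, were higher (0.47 and 0.49 on the log2 scale), and the cell cycle inhibitor Cdkn1a was lower (-0.92). The genes of the 78 mitochondrial ribosomal proteins, which build the separate ribosome inside mitochondria, had medians of 0.012, 0.0027 and 0.028. At an unadjusted p under 0.05 were 1, 0 and 3 of 78. The 1 was higher with aspirin than in controls (3.09% of all genes), and the 3 were lower with hydrogel than with aspirin (7.61%). No gene of these lists was called by edgeR. For hydrogel against aspirin the family's median was -1.07, that of the mitochondrial ribosome 0.028, that of the assembly factors -0.16 and that of all genes -0.053. Of the 49 assembly factors, 33 were lower in that comparison (53.3% of all genes) and 8 did not overlap (8.75%). With aspirin, 44 of the 49 were higher than in controls (54.0% of all genes), and 9 did not overlap (5.54%). With hydrogel, 36 of the 49 were higher than in controls (47.1% of all genes). All these list values include Aspirin 1, without which the family's median for hydrogel against aspirin was -0.59. The other lists were not examined without it, and the difference between the lists was not tested.

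**Figure D5:**
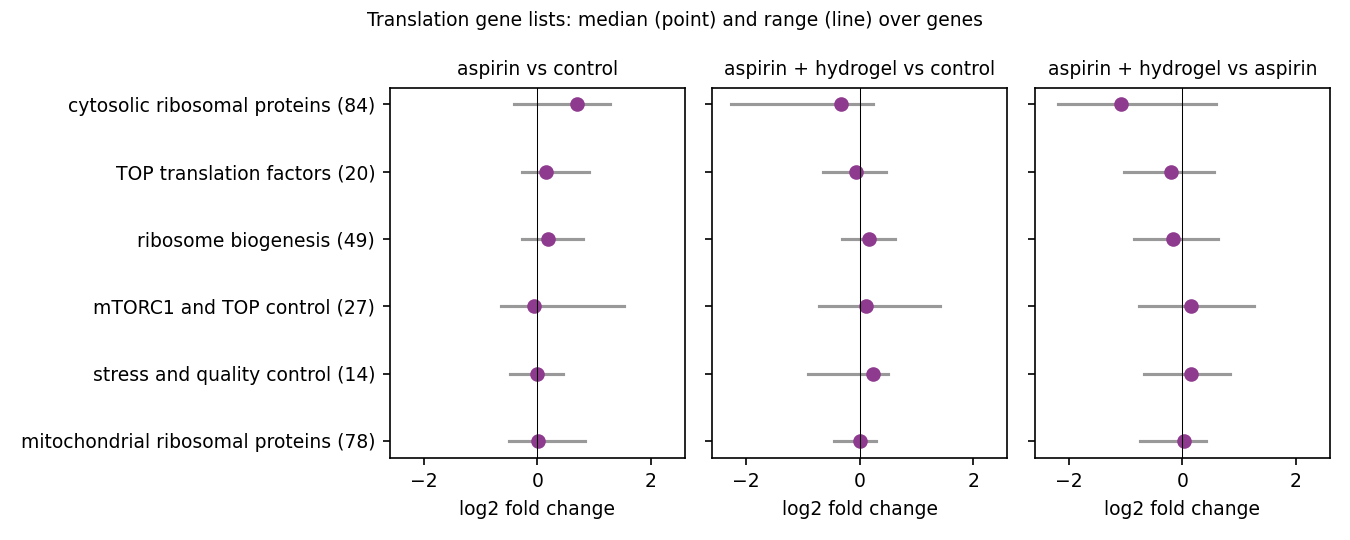
Median (point) and range over genes (line) of the log2 fold changes (horizontal axes) of 6 gene lists in the 3 comparisons, with the number of genes in brackets. The cytosolic ribosomal proteins lie at 0.70, -0.33 and -1.07, and the mitochondrial ones at 0.012, 0.0027 and 0.028.

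Markers of other cells also differed between libraries, some of them in step with Aspirin 1 and Hydrogel 3 and some not. Proliferation markers (10 genes) summed to 598 CPM in Aspirin 1 and to 37.5 to 163 CPM in the other 8 libraries. Their log2 fold change was below 0 in 10 of 10 for hydrogel against aspirin (median -2.33; 53.3% of all genes were below 0). Of the 10, 7 did not overlap (8.75% of all genes). Macrophage markers (15 genes) summed to 1595 to 3676 CPM with aspirin, 780 to 2092 CPM in controls and 683 to 1671 CPM with hydrogel. For hydrogel against aspirin, 15 of 15 were lower (53.3% of all genes), but only 3 of 15 did not overlap (8.75%). Neutrophil markers (10 genes) summed to 25.1 to 173 CPM in controls, 32.4 to 435 CPM with aspirin and 10.8 to 38.3 CPM with hydrogel. Lymphocyte markers (11 genes) summed to 39.9 to 664 CPM in controls, 44.2 to 1501 CPM with aspirin and 55.8 to 271 CPM with hydrogel. Macrophage, neutrophil and lymphocyte sums were all highest in Aspirin 1 (3676, 435 and 1501 CPM). The macrophage and neutrophil sums were lowest in Hydrogel 3 (683 and 10.8 CPM). Endothelial markers (10 genes) summed to 407 to 721 CPM in controls, 245 to 331 CPM with aspirin and 326 to 520 CPM with hydrogel, and 8 of 10 were lower with aspirin than in controls at an unadjusted p under 0.05 (3.39% of all genes). Adipocyte markers (8 genes) summed to 2700 to 4206 CPM in controls, 664 to 2019 CPM with aspirin and 664 to 3370 CPM with hydrogel. Fibroblast markers (10 genes) summed to 7163 to 11891 CPM in controls, 6570 to 11969 CPM with aspirin and 4956 to 7729 CPM with hydrogel. Red blood cell markers (7 genes) were highest in Control 3 (6197 CPM) and lowest in Control 2 (345 CPM). No marker list was at 0 in all libraries. Mitochondrial transcripts held 7.67% to 8.70% of counts with aspirin, 8.98% to 14.7% in controls and 11.4% to 14.1% with hydrogel. The part of cell composition in the ribosomal protein values was not tested. Each sample also carries a code number whose meaning is not given, 9 in controls, 8 with hydrogel, 7 in Aspirin 1 and 2, and 10 in Aspirin 3; no number occurs in more than 1 group, so a batch it may mark and the treatment cannot be told apart.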

How the data were processed

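The authors deposited counts per Ensembl gene for the 9 libraries, whole numbers with a different total in each, and FPKM values for the same genes. Per the submitters' processing notes, reads were placed on mm10. Which aligner, counter, annotation and strand setting served is not given in the sources used here. Per the labels' protocols, a SMARTER mRNA kit was used on 1 µg of total RNA. Deposited FPKM and library-scaled counts kept 1 constant per gene within 1% for 99.3% of values over 10432 genes. The table gives no symbol for 3225 of 55335 rows. Of the 84 genes, 28 share exon bases with another gene on the same strand and 19 with one on the opposite strand in GENCODE vM21, so some of their reads may be split.

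Genes were tested with edgeR's quasi-likelihood method (edgeR 4.0.16, R 4.3.3, robust), 1 fit over all 9 count libraries with group as its term, TMM scaling, filterByExpr (minimum count 10, total 15), and Benjamini-Hochberg adjustment over 18259 genes, threshold 0.05. CPM uses TMM-scaled library sizes, and intervals of fold changes are 95%. edgeR's common coefficient of variation came to 0.503. DESeq2 1.42.0, limma 3.58.1 (voom), library size without TMM, no filter, a replicate block, only the 6 libraries compared, and leaving out each library were alternatives. Scripts were tested on simulated data. A count of 0 allows up to 0.0554 to 0.100 CPM (3 counts per library, counting error only). Chi-square per degree of freedom between libraries of 1 group was at least 77.8, so none was counted as a duplicate. The series' design text gives 3 mice for each group.

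The genes and lists were chosen with earlier results of these data known. Genes were named by a rule: both members of each paralogue pair, the 5 highest and 5 lowest FPKM, and per comparison the 3 largest and 3 most negative fold changes and 3 smallest p-values; others were named after their values were seen. Values of some single genes are not reported here. Replicate numbers are shared between groups. Same-numbered aspirin and control libraries had correlated deviations (0.62, 0.13 and 0.26 over genes), though Control 3 with Aspirin 2 and Control 2 with Aspirin 3 had 0.42 and 0.19, and same-numbered hydrogel libraries were not correlated in every pair (0.26, -0.24 and 0.35 with control, 0.29, -0.44 and 0.48 with aspirin).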

Additional observations from a re-analysis of the deposited data

How the results depend on the processing

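No gene of the family was called by edgeR in any comparison with any 1 library left out (0 to 0 of 84), without TMM, without the filter or with the replicate block, under which 0 of 84 were called in each comparison and the median log2 fold changes were 0.60, -0.35 and -0.92; DESeq2 called 1 gene (Rps20, -1.68) for hydrogel against aspirin. With DESeq2 and Aspirin 1 left out, also chosen after seeing the data, 0 were called in the 3 comparisons and 1 (Rps20) for any difference, with medians of 0.21 and -0.58 for aspirin against control and hydrogel against aspirin, Rpl3l at 0.13 and Rpl3 at -0.15. With only the 6 libraries compared in each fit, 0 were called, and 1, 9 and 38 of 84 had an unadjusted p under 0.05 in place of 8, 1 and 65 (4.84%, 6.68% and 8.05% of all genes). Leaving out 1 library gave medians of 0.21 to 0.99 for aspirin against control, -0.50 to -0.21 for hydrogel against control and -1.40 to -0.59 for hydrogel against aspirin. With Aspirin 1 and Hydrogel 3 both left out, a setting chosen after seeing the data, the medians for aspirin against control and hydrogel against aspirin were 0.22 and -0.49. Scaling by library size without TMM shifted the all-gene median by 0.23, -0.23 and -0.46 and took the family's medians to 1.06, -0.56 and -1.68. The counts of genes without overlap were also examined after seeing the data. With 1 library left out they were 7 to 70, 7 to 66 and 51 to 78. The shares of all genes over these settings were 8.18% to 16.0%, 8.38% to 13.8% and 10.8% to 21.5%. Leaving a library out can only keep or raise these counts. The hydrogel share was 1.47% of summed FPKM. The group means of the share ranged over 1.37% to 1.92%, 1.91% to 4.39% and 1.04% to 1.32% with 1 library left out.

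Single genes changed sign as follows. For aspirin against control, Rpl3l ranged from -1.26 to 0.14, Rpl3 from -0.15 to 1.03, their log2 ratio from -2.61 to 0.31 and Rpl39l from -0.67 to 0.41 with 1 library left out; without Aspirin 1 and Hydrogel 3 Rpl3l was 0.14 and Rpl3 -0.13. Rpl39l was 0.16 by limma-voom, 0.31 by library size alone and 0.040 with the replicate block. For hydrogel against control the ranges were -0.075 to 0.52 (Rpl3l), -0.16 to 0.22 (Rpl36al), -0.064 to 0.29 (Rpl7l1), -0.29 to 0.0023 (Rpl22), -0.19 to 0.068 (Rpl4) and -0.43 to 0.11 (Rps27l). Library size alone gave -0.12 for Rpl36al and -0.14 for Rpl7l1, and without Aspirin 1 and Hydrogel 3 Rpl3l was -0.039. For hydrogel against aspirin, Rpl7l1 ranged from -0.15 to 0.017, and Rpl3l was -0.18 without those 2 libraries. The causes were not tested. The 3 mice in each group limit the precision.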
